A study of Homo sapiens with 9 samples.

Results

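The genes examined together were MTOR, the kinase shared by both MTOR complexes, the complex subunits MLST8, DEPTOR, RPTOR, AKT1S1, RICTOR and MAPKAP1, and the upstream switch made of TSC1, TSC2 and RHEB. They were chosen by name, as parts of the complexes and their switch, and all 10 were among the 14943 genes of the deposited table. Each was measured by polyA RNA sequencing in SH-Sy5y cells, a dividing human neuroblastoma line from ECACC, 48 h after Lipofectamine transfection with a mimic of the microRNA miR-1229-3p. In the Ctrl group, cells received 40 pmol of a negative control RNA and no mimic. The 10 nM group received 20 pmol of mimic with 20 pmol of the control RNA, and the 20 nM group 40 pmol of mimic without control RNA. Each group held 3 libraries, numbered 1 to 3, so the 20 nM against Ctrl comparison contrasts the mimic with the control RNA and the gain of one cannot be told apart from the absence of the other. The study's methods pool wells for an RNA sample where possible, and nothing in the labels says that the 3 libraries of a group came from separate cultures. The p-values then measure the spread between these libraries only. The samples are bulk RNA, in which fewer cells of a kind and less RNA per cell cannot be told apart.

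MTOR is a large serine/threonine kinase that couples nutrients and growth factors to cell growth. With MLST8 and RPTOR it forms MTOR complex 1, which drives protein, lipid and nucleotide synthesis and holds back autophagy. With MLST8, RICTOR and MAPKAP1 it forms MTOR complex 2, which phosphorylates AKT, SGK and PKC kinases. TSC1 and TSC2 form the brake: TSC2 turns off the small GTPase RHEB, which in its GTP-bound form activates complex 1 on the lysosome. In neurons the pathway sets soma size, dendrite growth and local translation, and loss of either TSC gene causes tuberous sclerosis. A microRNA usually lowers a transcript modestly, by pairing its seed with a match in the 3′ UTR, and the mimic itself is too short to be read by these libraries, so its uptake could not be checked in them.

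The sequences below show which of the 10 transcripts carry a match to the seed of the transfected microRNA, and what surrounds each one. The mature miR-1229-3p (RefSeq, GRCh38.p14, chr5:179798278-179798300, minus strand) has 23 bases, with its seed, bases 2 to 8, in capitals. In the sites, capitals mark the motif, which is the match to the seed and, in the 8-mer and the A1 7-mers, a final A opposite base 1 of the microRNA that does not pair with it. Each site is printed with 8 flanking bases on either side, and the coordinates given for sites include these flanks. An 8-mer is GGTGAGAA, the 7-mers are GGTGAGA (m8) and GTGAGAA (A1), and a 6-mer is GTGAGA. Only the transcript strand was searched, in the canonical GENCODE 44 transcript, and each site was counted under its longest kind.
hsa-miR-1229-3p: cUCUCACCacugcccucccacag
MTOR 3′ UTR 8-mer: gaaaccatGGTGAGAAagtttgac
RPTOR 3′ UTR 7-mer (m8): attctggcGGTGAGAggcccacg
TSC1 3′ UTR 7-mer (m8): aggaccttGGTGAGAtggggtgc
RICTOR 3′ UTR first 7-mer (A1): tcattacaGTGAGAAtctcattt
RICTOR 3′ UTR second 7-mer (A1): tgaaatctGTGAGAAtctttcta
TSC2 3′ UTR 6-mer: gacacacaGTGAGAcggtgcag
MAPKAP1 coding 7-mer (m8): gaagcaatGGTGAGActcagggc

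MTOR was the only one of the 10 with an 8-mer in its 3′ UTR. The site lies in the last exon, exon 58, and its motif begins at base 80 of a 3′ UTR of 950 bases (chr1:11107390-11107413, minus strand, GRCh38.p14). The RPTOR 7-mer lies in exon 34 (chr17:80965593-80965615, plus strand) at base 1271 of 2038, and a 6-mer follows it at base 1295. RICTOR has both of its 7-mers in exon 38 (chr5:38938755-38938777 and chr5:38938687-38938709, minus strand), late in a 3′ UTR of 4384 bases, and a 6-mer upstream of them. The TSC1 7-mer lies at base 3669 of 4886 (chr9:132892552-132892574, minus strand), and TSC2 has only the 6-mer (chr16:2089290-2089311, plus strand). The 3′ UTRs of MLST8, DEPTOR, AKT1S1, MAPKAP1 and RHEB held none of the 4 motifs. Inside coding sequence, MTOR, MAPKAP1 and TSC1 each held a 7-mer (m8), RPTOR a 7-mer (A1) and TSC2 a 6-mer. MTOR, RPTOR and MAPKAP1 each held a coding 6-mer as well. The MAPKAP1 7-mer is in exon 2 (chr9:125672386-125672408, minus strand).

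Such matches are common in long 3′ UTRs. Of the 13082 genes with a 3′ UTR of at least 50 bases, 22.8% held a 7-mer or 8-mer and 4.64% an 8-mer in their longest one. Among the 1478 whose 3′ UTR was within 20% of the length of that of MTOR, 11.1% held a 7-mer or 8-mer and 2.1% an 8-mer. At the length of the RICTOR 3′ UTR 43.4% held a 7-mer or 8-mer, at that of TSC1 58.3% and at that of RPTOR 23.2%. With the longest annotated 3′ UTR in place of the canonical one, TSC1 gained a second 7-mer (m8), which is the coding match of its canonical transcript, and no other member gained or lost a site.

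All 9 libraries were deep, with a total of 17.4 to 28.2 M estimated counts each (M for mega), and 1 of them stood apart. That library, 20 nM replicate 3, had a score of 47.4 on the first principal component (30.4% of the variance), where the remaining 8 ranged from -17.1 to 7.72. Among 10509 genes of at least 10 CPM, 22.4% were more than 0.25 log2 units higher in it than in the mean of 20 nM replicates 1 and 2, and 22.4% more than 0.25 lower. CPM (counts per M) is a gene's count relative to its library's total after trimmed-mean scaling. The 9 noradrenergic neuroblastoma markers were all measured and 8 of them averaged at least 1 CPM (TH did not), with a summed level of 4788 to 4942 CPM in Ctrl, 5143 to 5582 at 10 nM and 4921 to 5976 at 20 nM, highest in replicate 3. Of 7 mesenchymal markers 6 were measured (241 to 281, 228 to 282 and 251 to 291 CPM), the 2 measured of 5 Schwann or glial markers summed to 4.27 to 6.33 CPM, and the 3 measured of 5 fibroblast, epithelial or immune markers to 22.9 to 30.3 CPM. In the edgeR dose trend 3 of the 9 noradrenergic markers were called lower and 0 higher, beside 7.69% of all genes called lower, among them ISL1 (-0.29, adjusted p = 0.00211). In a fit blocked on replicate number without surrogate variables 2 were lower and 2 higher, and with 20 nM replicate 3 also left out 4 were lower and 2 higher. In the dose trend with surrogate variables 1 of the 6 measured mesenchymal markers, CD44, was called higher (1.32, edgeR adjusted p = 0.00099) and 0 lower. Of all genes, 9.84% were called higher there, and 1 of the 6 markers was below 0. The part of these markers in the results below was not tested. Results below are given from the fit with surrogate variables, which holds no replicate term. Values with 20 nM replicate 3 left out are added where that matters. Surrogate variables are estimated factors for variation that the groups do not explain. That of the group fit was at 0.907 in 20 nM replicate 3 and from -0.242 to 0.0602 in the remaining 8 libraries, so it mainly marks that library. The first of the dose fit was at 0.896 there.

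In control cells all complex subunits except DEPTOR were well expressed. Per kilobase of canonical transcript, RHEB was highest at 68.1 ± 2.54 CPM/kb (SD, n = 3), followed by AKT1S1 at 54.4 ± 2.10, TSC2 at 48.3 ± 3.00, MLST8 at 42.0 ± 0.733 and MAPKAP1 at 37.4 ± 1.02. Then came MTOR at 14.8 ± 0.369, RPTOR at 13.7 ± 0.569, TSC1 at 7.19 ± 0.583, RICTOR at 2.52 ± 0.319 and DEPTOR at 0.432 ± 0.121. The ranges of neighbouring genes did not overlap anywhere in this order. RICTOR, the defining subunit of complex 2, was thus counted at a fraction of the level of RPTOR, the defining subunit of complex 1, and the kinase itself lay close to RPTOR. The middle of the order depended on the length used. With all annotated exons of a gene as its length MAPKAP1 moved to rank 2, AKT1S1 to rank 3 and TSC2 to rank 5, while MTOR, RPTOR, TSC1, RICTOR and DEPTOR held ranks 6 to 10.

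**Figure D1:**
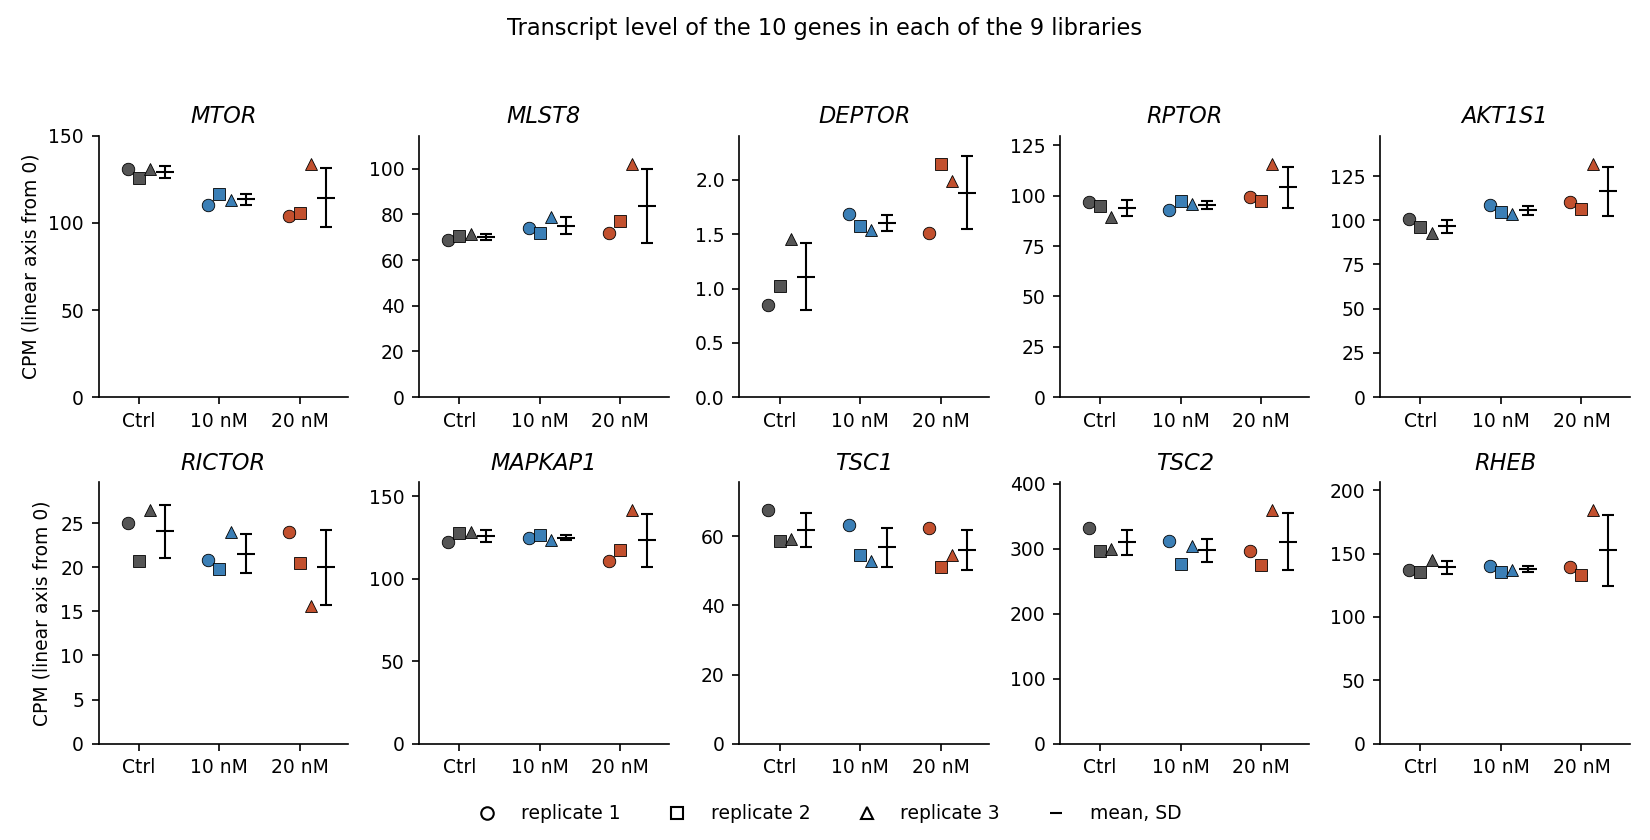
Level of each of the 10 genes in CPM (vertical axes, linear from 0) in the Ctrl, 10 nM and 20 nM groups (horizontal axes); points are libraries, shaped by replicate number, and the bar beside them is the mean with its SD (n = 3). MTOR at 10 nM lies below every Ctrl library, and 20 nM replicate 3 (triangle) lies above the other 20 nM libraries for 7 of the genes, MTOR among them, and below both for RICTOR.

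MTOR (ENSG00000198793, chr1:11106535-11262556, minus strand), the catalytic subunit of both complexes, was called lower at both concentrations in the fit with surrogate variables. With all 9 libraries MTOR was called in no comparison of the fit blocked on replicate number. It was at 131, 125 and 131 CPM in the Ctrl libraries, at 110.3, 117 and 113 CPM at 10 nM, and at 104, 106 and 134 CPM at 20 nM. Every 10 nM library lay below every Ctrl library, which 9.9% of all genes did, and so did 20 nM replicates 1 and 2 (21.7% of all genes), whereas 20 nM replicate 3 lay above all 3 controls. The fitted log2 fold change was -0.23 ± 0.0426 (SE) at 10 nM, a drop of 14.5% (edgeR quasi-likelihood test with Benjamini-Hochberg adjustment, adjusted p = 0.0323). At 20 nM it was -0.32 ± 0.0490, a drop of 20.0% (edgeR adjusted p = 0.00102), and over the 3 amounts it was -0.27 ± 0.0492 per 20 nM (edgeR adjusted p = 0.00234). The step from 10 to 20 nM was -0.10 with an interval of 2 SE from -0.19 to -0.0043 and did not pass (edgeR adjusted p = 0.358). MTOR was the 1 member of 10 called at 10 nM, where 0.649% of all genes passed and 0.428% passed as lower. The study named MTOR as a putative target from these same libraries, so its direction here is not independent evidence.

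The 20 nM and dose calls were lost when the surrogate variables were left out with all 9 libraries kept, and they passed in all 4 fits without 20 nM replicate 3. The 10 nM call was less stable. In a fit blocked on replicate number, without surrogate variables, MTOR was at -0.19 at 10 nM (edgeR adjusted p = 0.533), at -0.18 at 20 nM (0.169) and at -0.18 in the dose trend (0.159), and none passed. Of all genes, 0.0201%, 13.6% and 16.4% passed in that fit. With the same block and 20 nM replicate 3 left out, a fit chosen after seeing the data, MTOR was at -0.19 (edgeR adjusted p = 0.0015), -0.30 (1.73e-05) and -0.31 (0.000169), and all passed, beside 12%, 29.3% and 24.4% of all genes. Without that library the 10 nM call also passed with re-estimated surrogate variables (edgeR adjusted p = 0.00219), and it did not pass with the surrogate variables kept (0.0508) or with none and no block (0.0753). The 10 nM value of MTOR under the block was the same to 2 decimals with and without 20 nM replicate 3, which is in neither group compared. In the log2 values that the authors corrected with surrogate variables, MTOR averaged 11.68 ± 0.0291 (SD, n = 3) in Ctrl, 11.51 ± 0.0494 at 10 nM and 11.44 ± 0.00564 at 20 nM. Their exact transform is not given in the sources used here. These SDs were taken after the correction and do not show the measured spread, which at 20 nM was 115 ± 16.9 CPM (SD, n = 3). The corrected values come from the same libraries and are not independent evidence. When 1 library at a time was left out with the surrogate variables kept, the 20 nM and dose calls held in 9 of 9 fits. The 10 nM call held only without Ctrl replicate 2, at an edgeR adjusted p of 0.0485, with adjusted p from 0.0508 to 0.137 in the other 8 fits.

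**Figure D2:**
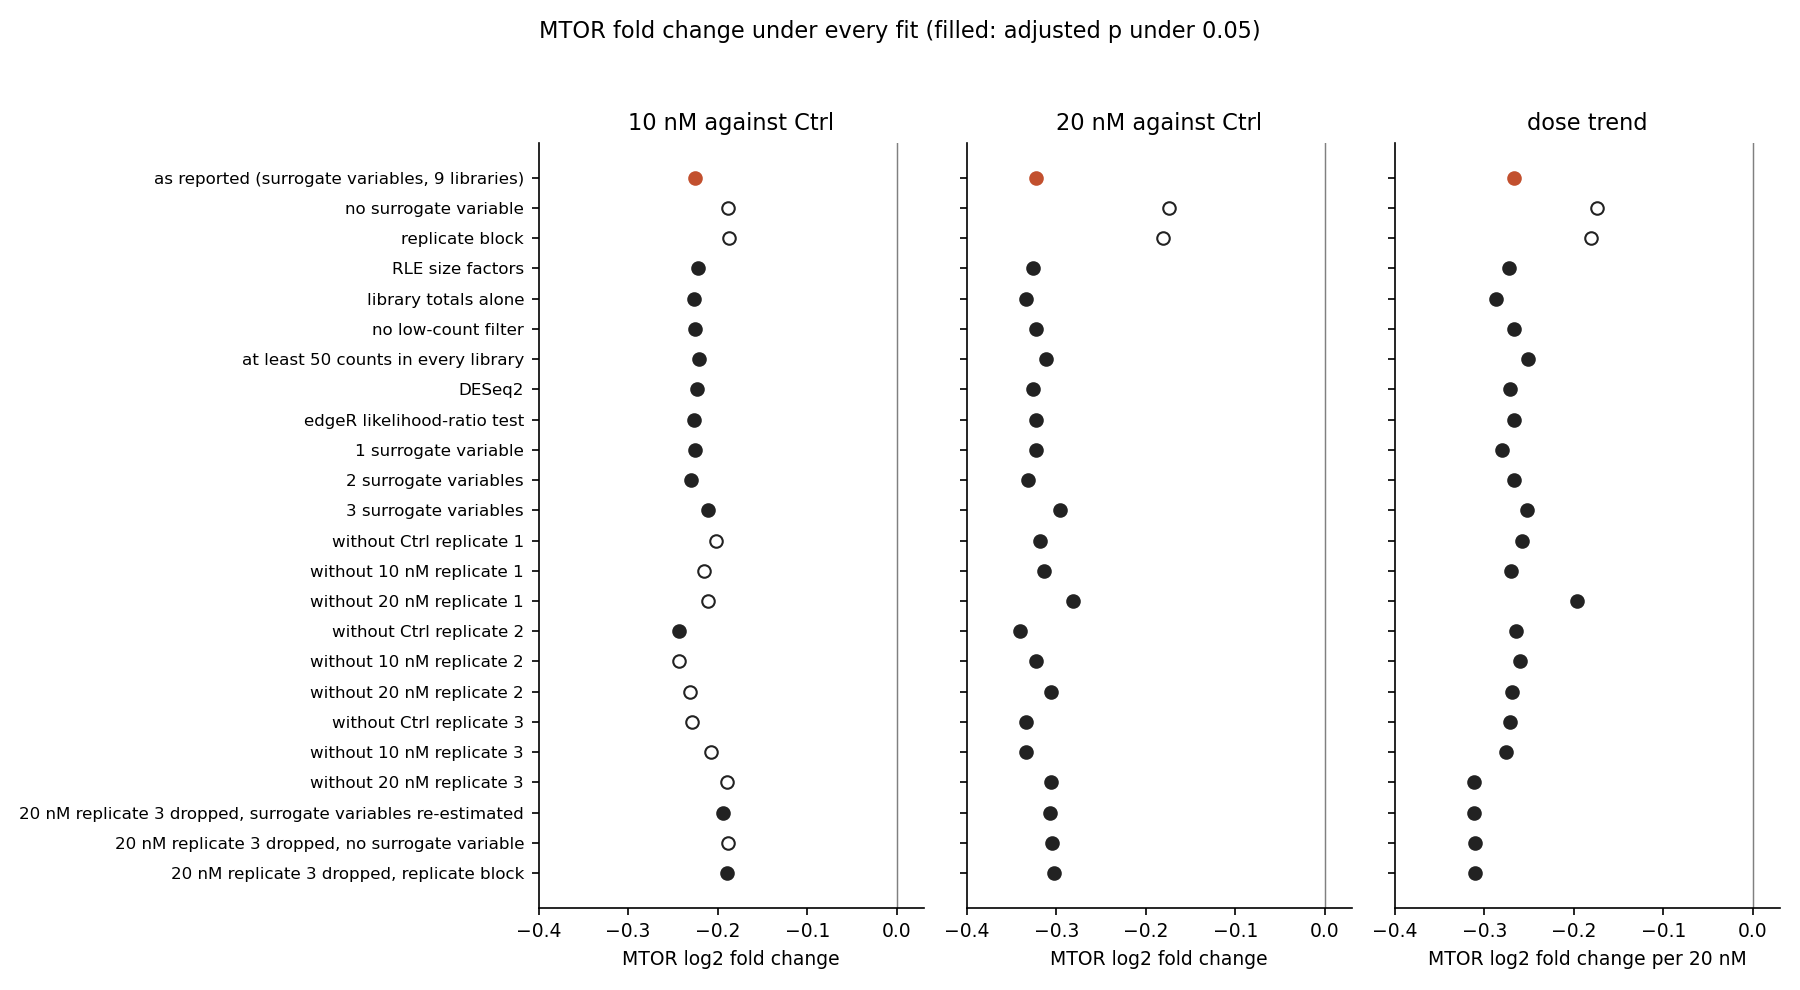
MTOR log2 fold change (horizontal axes) at 10 nM, at 20 nM and per 20 nM of dose, under the fit as reported (red) and each alternative (rows); filled points have an adjusted p under 0.05. All points lie below 0, and at 20 nM the open points are the fit without surrogate variables at -0.17 and the replicate block with all 9 libraries at -0.18.

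A ratio of 2 counts from the same library needs no scaling between libraries, so the MTOR count was set over that of each other member. Over RPTOR, its partner in complex 1, the ratio was 1.35, 1.32 and 1.46 in Ctrl, 1.19, 1.20 and 1.18 at 10 nM, and 1.05, 1.09 and 1.16 at 20 nM. All 6 mimic libraries lay below all 3 controls, 20 nM replicate 3 included. A ratio is lower with a higher partner as well as with less MTOR. In 20 nM replicate 3 MTOR itself, at 134 CPM, lay above every control, and RPTOR was at 116 CPM. MLST8, DEPTOR and AKT1S1 lay above every control at both amounts, and RPTOR did at 20 nM. MAPKAP1 and RHEB overlapped the controls at both. Over AKT1S1 the ratio was 1.31, 1.31 and 1.41 in Ctrl, 1.02, 1.11 and 1.09 at 10 nM and 0.942, 0.992 and 1.01 at 20 nM, again without overlap. Over MLST8, present in both complexes, it averaged 1.84 ± 0.0602 (SD, n = 3) in Ctrl, 1.52 ± 0.0980 at 10 nM and 1.38 ± 0.0699 at 20 nM. Over RHEB it averaged 0.928 ± 0.0287, 0.824 ± 0.0376 and 0.754 ± 0.0336. MAPKAP1 and DEPTOR completed the 6 of 9 partners for which all 6 mimic libraries were lower. Of the 12158 genes with at least 50 counts in every library, 28.5% gave such a ratio to MTOR, and 0.28% one that was higher in all 6. DEPTOR, with as few as 19 counts in a library, is not among the 12158. For each amount alone the shares of lower ratios were 57.4% at 10 nM and 34.5% at 20 nM. Against TSC2 only the 20 nM libraries were all below the controls, and against RICTOR and TSC1 the groups overlapped at both amounts, with 20 nM replicate 3 the highest at 8.62 and 2.46.

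**Figure D3:**
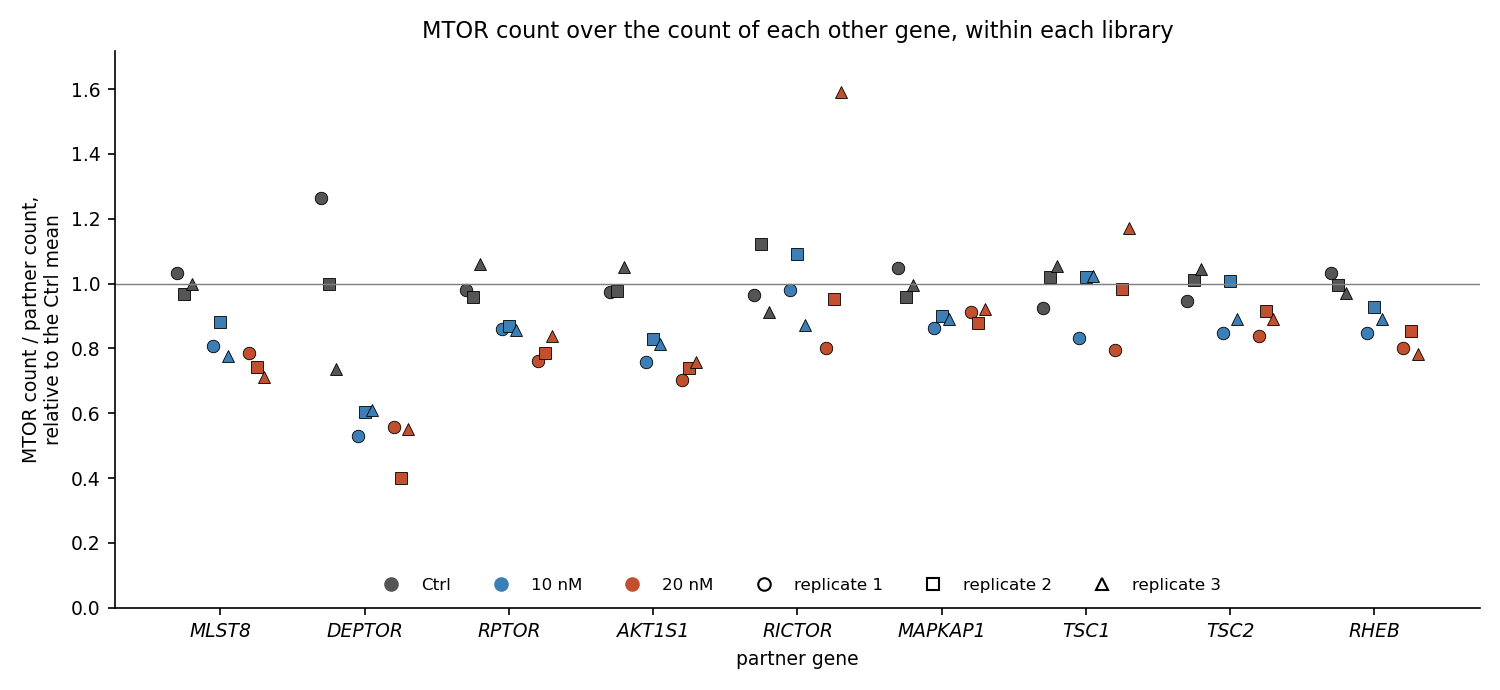
MTOR count divided by the count of each other gene in the same library, relative to the mean of the 3 Ctrl libraries (vertical axis, linear from 0), for the 9 partner genes (horizontal axis); colours are groups and shapes are replicate numbers. For MLST8, DEPTOR, RPTOR, AKT1S1, MAPKAP1 and RHEB all 10 nM and 20 nM points lie below the Ctrl points.

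AKT1S1 (ENSG00000204673, chr19:49869033-49878459, minus strand), which encodes PRAS40, an inhibitory subunit of complex 1 and a substrate of AKT, was higher with dose. It was at 100.4, 96.0 and 93.1 CPM in Ctrl, at 108, 105 and 104 CPM at 10 nM and at 110.3, 106 and 132 CPM at 20 nM. Every mimic library lay above every Ctrl library at both amounts, as 10.1% of all genes did at 10 nM and 15.2% at 20 nM. The dose trend was 0.21 ± 0.0561 (SE) log2 units per 20 nM (edgeR quasi-likelihood test, adjusted p = 0.0182), beside 9.84% of all genes called higher in that trend. Under the block it was 0.27 (edgeR adjusted p = 0.0362), and with 20 nM replicate 3 also left out 0.16 (0.0188). The separate comparisons did not pass in the fit with surrogate variables, at 0.11 (edgeR adjusted p = 0.391) at 10 nM and 0.17 (0.0848) at 20 nM. Both passed with the block and 20 nM replicate 3 left out, at 0.13 (edgeR adjusted p = 0.0142) and 0.15 (0.0077). The dose call was lost without Ctrl replicate 3 (edgeR adjusted p = 0.081) and held in the other 8 fits that left out a library.

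RPTOR (ENSG00000141564, chr17:80544819-80966371, plus strand), which recruits substrates to complex 1 and carries a 3′ UTR 7-mer, passed in no comparison. It was at 97.0, 94.9 and 89.4 CPM in Ctrl, at 92.9, 97.2 and 95.9 CPM at 10 nM, and at 99.1, 97.3 and 116 CPM at 20 nM. The 10 nM libraries overlapped the controls. The 20 nM libraries lay above them, as for 15.2% of all genes, with replicate 3 the highest. The lowest of them, at 97.3 CPM, was close to the highest control, at 97.0 CPM. The log2 fold change at 20 nM was 0.06, with an interval of 2 SE from -0.05 to 0.17 (edgeR adjusted p = 0.528), which does not include a drop of the size fitted for MTOR. At 10 nM the interval ran from -0.09 to 0.09.

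MLST8 (ENSG00000167965, chr16:2204248-2209453, plus strand), which stabilizes the MTOR kinase domain in both complexes, was at 68.8, 70.3 and 71.3 CPM in Ctrl, at 74.0, 71.9 and 79.0 CPM at 10 nM, and at 71.6, 77.2 and 102 CPM at 20 nM. Its mimic libraries all lay above the controls, as for 10.1% of all genes at 10 nM and 15.2% at 20 nM, and no comparison passed in the fit with surrogate variables. The dose trend was 0.13 (edgeR adjusted p = 0.0845), and 20 nM replicate 3 was 1.37 times the mean of replicates 1 and 2. DEPTOR (ENSG00000155792, chromosome 8, plus strand), an inhibitory subunit that binds MTOR directly, was close to the limit of detection, with 19 to 50 counts per library. It was at 0.848, 1.03 and 1.45 CPM in Ctrl, at 1.69, 1.58 and 1.54 CPM at 10 nM and at 1.51, 2.15 and 1.99 CPM at 20 nM. Both mimic groups lay above the controls without overlap (again 10.1% and 15.2% of all genes), at a log2 fold change of 0.51 ± 0.281 (SE) and 0.67 ± 0.308, and neither passed (edgeR adjusted p = 0.446 and 0.179).

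Of the 2 complex 2 subunits, MAPKAP1 was called lower at 20 nM and RICTOR was not called. MAPKAP1 (ENSG00000119487, chr9:125437393-125707234, minus strand), also known as SIN1, positions substrates for complex 2. It was at 122, 128 and 128 CPM in Ctrl, at 125, 126 and 124 CPM at 10 nM, and at 111, 117 and 142 CPM at 20 nM. The 10 nM libraries lay inside the Ctrl range, 20 nM replicates 1 and 2 below it, as for 21.7% of all genes, and 20 nM replicate 3 above it. The fitted log2 fold change at 20 nM was -0.16 ± 0.0471 (SE) (edgeR quasi-likelihood test, adjusted p = 0.0375), which with MTOR made 2 of 10 members called, both lower, beside 13.9% of all genes called and 6.08% called lower. Under the block the MAPKAP1 value was -0.04 (edgeR adjusted p = 0.776), and with 20 nM replicate 3 also left out it was -0.14 (0.00799). The call was also lost in 4 of the 9 fits that left out a library, those without Ctrl replicate 2 (edgeR adjusted p = 0.0833), Ctrl replicate 3 (0.0732), 20 nM replicate 1 (0.375) and 20 nM replicate 2 (0.122).

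RICTOR (ENSG00000164327, chr5:38937920-39074402, minus strand), the scaffold of complex 2 and the member with the most 3′ UTR matches, varied between libraries within each group. It was at 25.1, 20.7 and 26.5 CPM in Ctrl, at 20.8, 19.8 and 24.0 CPM at 10 nM, and at 23.9, 20.4 and 15.6 CPM at 20 nM. The groups overlapped at both amounts, although within each replicate number both mimic libraries lay below their control, and under the block the 10 nM value was -0.16 and the 20 nM value -0.27 (edgeR adjusted p = 0.788 and 0.245). The lowest value was 20 nM replicate 3, which ran opposite to MTOR, MLST8, RPTOR, AKT1S1, MAPKAP1, TSC2 and RHEB there. Its log2 fold change was -0.12 at 10 nM (2 SE from -0.34 to 0.10) and -0.11 at 20 nM (-0.36 to 0.14), with edgeR adjusted p = 0.664 and 0.617. These intervals hold 0 as well as a drop of the size fitted for MTOR.

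**Figure D4:**
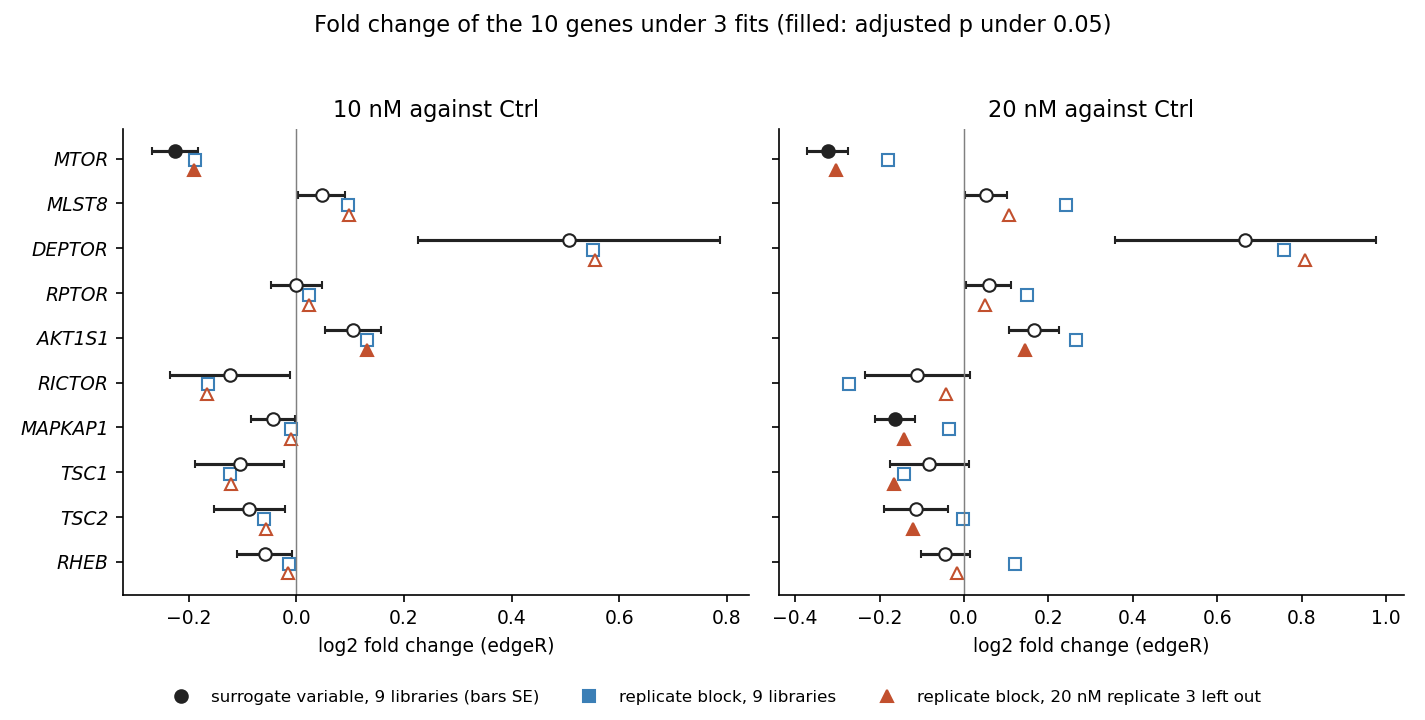
Log2 fold change against Ctrl (horizontal axes) of the 10 genes at 10 nM and 20 nM in 3 edgeR fits; circles are the fit with surrogate variables with SE bars, squares the replicate block with all 9 libraries, triangles the replicate block without 20 nM replicate 3, and filled points have an adjusted p under 0.05. MTOR is filled in both panels except under the block with all libraries. MAPKAP1 is filled at 20 nM only, and is open there too under that block. Among the triangles AKT1S1 is also filled in both panels, and TSC1 and TSC2 at 20 nM.

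No gene of the brake, and not RHEB, passed in the fit with surrogate variables. TSC1 (ENSG00000165699, chr9:132891348-132946874, minus strand), which stabilizes TSC2, was at 67.6, 58.7 and 59.1 CPM in Ctrl, at 63.2, 54.4 and 52.7 CPM at 10 nM and at 62.4, 51.1 and 54.5 CPM at 20 nM. In each group replicate 1 was the highest, and the groups overlapped, but within each replicate number both mimic libraries lay below their control. Under the block with all 9 libraries TSC1 was at -0.14 at 20 nM (unadjusted p = 0.0302, edgeR adjusted p = 0.119). With surrogate variables its log2 fold change at 20 nM was -0.08 (2 SE from -0.27 to 0.11, edgeR adjusted p = 0.624), and with the block and 20 nM replicate 3 left out it was -0.17 (0.0166). TSC2 (ENSG00000103197, chr16:2047967-2089491, plus strand), the GTPase-activating subunit, was at 332, 297 and 300.4 CPM in Ctrl, at 312, 277 and 304 CPM at 10 nM and at 297, 276 and 359.7 CPM at 20 nM. Its 20 nM replicate 3 was again the highest of all 9 libraries. Replicates 1 and 2 lay below the controls, as for 21.7% of all genes. The higher of them was at 296.7 CPM, beside 297.3 CPM in the lowest control. TSC2 was at -0.11 at 20 nM with surrogate variables (edgeR adjusted p = 0.362). With the block and without 20 nM replicate 3 it was at -0.12 (edgeR adjusted p = 0.0119), and 29.3% of all genes were called there. RHEB (ENSG00000106615, chr7:151466012-151520120, minus strand), the GTPase that activates complex 1, was at 137, 136 and 145 CPM in Ctrl, at 140.4, 136 and 137 CPM at 10 nM and at 139.8, 133 and 184 CPM at 20 nM. Apart from 20 nM replicate 3 its libraries lay between 133 and 145 CPM, and its 20 nM log2 fold change was -0.04 with an interval from -0.16 to 0.07 (edgeR adjusted p = 0.677).

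Some members share sequence with neighbouring genes, and the library kit does not mark strand. The end of TSC2 overlaps exons of PKD1, on the opposite strand, over 784 bases or 12.2% of its canonical transcript, and PKD1 was at 387 to 533 CPM. MLST8 overlaps BRICD5 over 201 bases (12%), and BRICD5 was at 4.06 to 5.75 CPM. RHEBP2, a processed pseudogene of RHEB, was at 0.843 to 1.77 CPM. Reads from these stretches could be assigned to either gene, and their share was not tested.

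Between 10 and 20 nM no member passed (edgeR quasi-likelihood test, 0 of 10 beside 2.79% of all genes), and 1, MAPKAP1, had an unadjusted p under 0.05. DESeq2 with the same surrogate variables also called 0 of 10 there and had MAPKAP1 alone at an unadjusted p under 0.05. Over the dose trend 2 of 10 passed, MTOR lower and AKT1S1 higher, beside 17.5% of all genes, a share close to the background.

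The genes whose level most resembled that of MTOR were ranked by Pearson correlation of log2 CPM across libraries, given as a description because the libraries share groups and depth. Over all 9 libraries they were DNM1P47 (r = 0.952), SAYSD1 (0.947), SNX8 (0.944), TRNAU1AP (0.940) and SUPT6H (0.938). Over the 8 libraries without 20 nM replicate 3 they were 5 other genes, VPS41 (0.995), PDE7A (0.992), PTPN1 (0.990), SMAP1 (0.985) and CCNB1IP1 (0.983). Among the members themselves MAPKAP1 was nearest to MTOR, at 0.769 over 9 libraries and 0.704 over 8, and AKT1S1 the farthest over 8, at -0.889.

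The rest of the pathway was covered by 11 lists of 111 measured genes other than the members. In the dose trend 6 of the 111 were called lower and 18 higher, 21.6% together, beside 17.5% of all genes (edgeR, 7.69% lower and 9.84% higher). Under the block 5 were lower and 15 higher (18% beside 16.4%), and with 20 nM replicate 3 also left out 8 were lower and 24 higher (28.8% beside 24.4%). Values below are log2 fold changes per 20 nM from the edgeR dose trend, with its adjusted p.

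**Figure D5:**
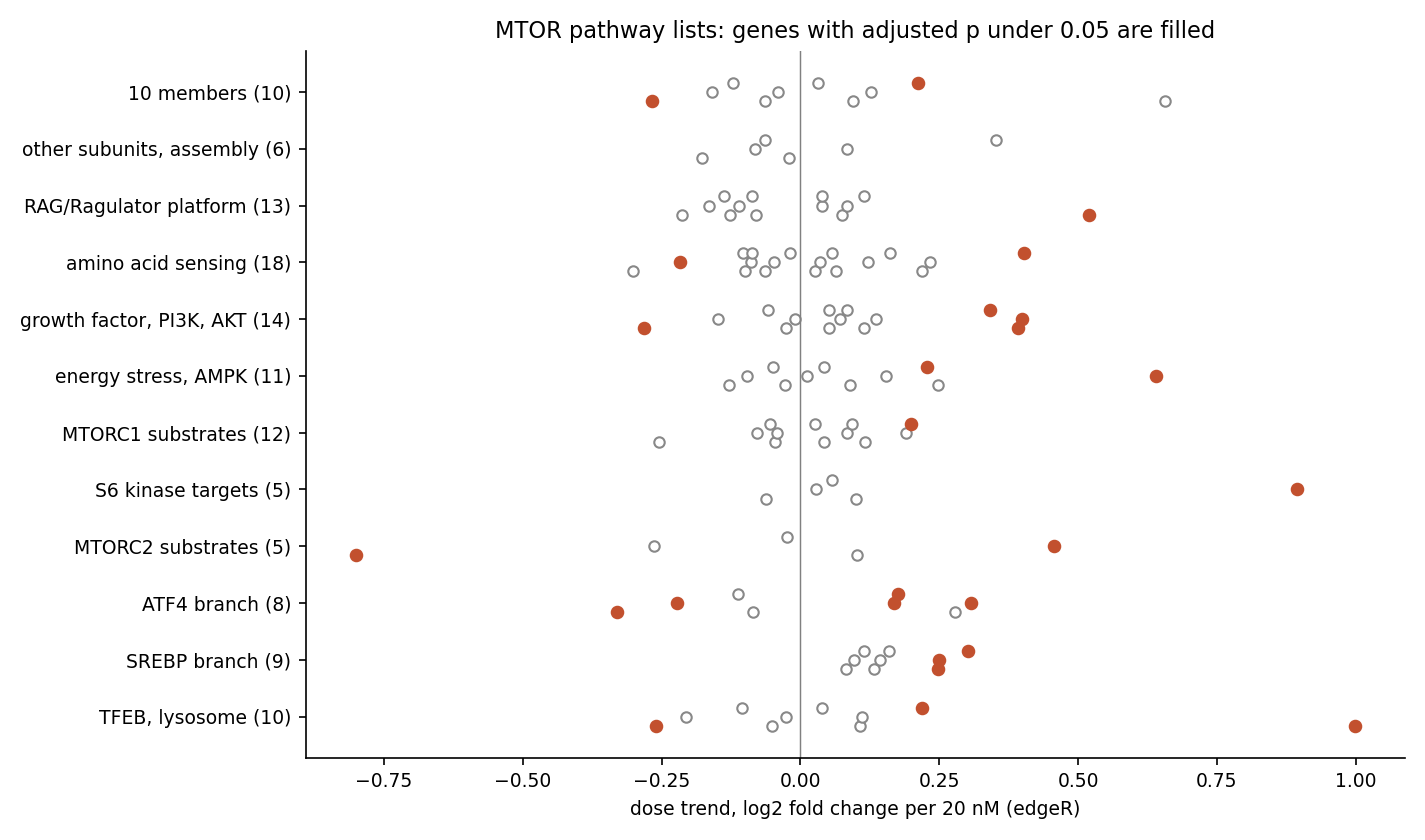
Dose trend of the 10 members and of 11 lists of other pathway genes (rows, number of measured genes in parentheses), as log2 fold change per 20 nM (horizontal axis); each point is a gene, and filled points have an adjusted p under 0.05. The called genes lie on both sides of 0, from SGK3 at -0.80 to GPNMB at 1.0, and all 9 genes of the SREBP list lie above 0, 3 of them called.

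Among the upstream inputs, calls of both signs were found, where 7.69% of all genes were called lower and 9.84% higher in the dose trend. Of 14 growth factor, PI3K and AKT genes, 1 fell and 3 rose, with a median of 0.06. The 3 were PIK3R2, a regulatory subunit of PI3 kinase, at 0.40 (edgeR adjusted p = 0.000427), PDPK1, the kinase that activates AKT and S6 kinase, at 0.39 (0.000251), and IGF1R, a receptor for insulin-like growth factors, at 0.34 (0.00118). IGF1R was at 264, 270.4 and 254 CPM in Ctrl, at 274, 289 and 264 CPM at 10 nM and at 328, 334 and 341 CPM at 20 nM, so that only the 20 nM libraries stood clear of the controls. PIK3R2 was at 307, 328 and 297 CPM in Ctrl, at 382, 374 and 375 CPM at 10 nM and at 383, 426 and 492 CPM at 20 nM, clear of the controls at both. Of all genes, 10.1% lay above every control at 10 nM and 15.2% at 20 nM. The fourth called gene was PIK3CA, a catalytic subunit, at -0.28, and it is named because the count is small.

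Of 11 energy and stress genes, 2 rose, beside 9.84% of all genes called higher in the dose trend. DDIT4, also known as REDD1, which restrains complex 1 through the TSC brake, was at 0.64 (edgeR adjusted p = 0.000496). CAB39, a partner of the AMPK-activating kinase LKB1, was at 0.23 (edgeR adjusted p = 0.0207). DDIT4 was at 37.8, 48.7 and 40.2 CPM in Ctrl, at 44.2, 52.0 and 50.9 CPM at 10 nM, and at 61.5, 71.0 and 74.4 CPM at 20 nM. All 20 nM libraries lay above every control, as did those of 15.2% of all genes. CAB39 was at 0.20 under the block and did not pass (edgeR adjusted p = 0.0665).

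Of 18 genes of the amino acid branch, 1 rose and 1 fell, around a median of 0.00. Of all genes, 9.84% were called higher and 7.69% lower in the dose trend. SESN3, a sestrin that restrains complex 1, was at 0.40 (edgeR adjusted p = 0.000876), with 49.5, 50.3 and 48.4 CPM in Ctrl, 62.2, 59.5 and 53.5 CPM at 10 nM, and 74.4, 59.5 and 46.3 CPM at 20 nM. Its 20 nM replicate 3 lay below the controls, and under the block it did not pass (0.26, edgeR adjusted p = 0.118). CASTOR2, a relative of the arginine sensor CASTOR1, was at -0.22 (edgeR adjusted p = 0.0401). Of 13 genes of the lysosomal platform on which complex 1 is activated, only FNIP2, a folliculin partner, passed, at 0.52 (edgeR adjusted p = 0.00298), and it missed under the block (0.41, 0.0539). Of the 6 other subunits and assembly factors 0 passed, by edgeR and by DESeq2, and 1 had an unadjusted p under 0.05 in each.

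Among substrates of the complexes and targets of S6 kinase, the only gene called lower was a complex 2 substrate. Of all genes, 7.69% were called lower and 9.84% higher in the dose trend. Of 12 measured complex 1 substrates 1 rose, MAF1, a repressor of RNA polymerase III, at 0.20 (edgeR adjusted p = 0.032), and it missed under the block (0.33, 0.0599). Its 20 nM replicate 3, at 173 CPM, lay far above the other 8 libraries, which ran from 108 to 127 CPM. Of 5 S6 kinase targets 1 rose, PDCD4, which S6 kinase marks for degradation and which restrains translation, at 0.89 (edgeR adjusted p = 5.52e-05). PDCD4 was at 39.3, 42.8 and 34.9 CPM in Ctrl, at 44.4, 44.1 and 41.3 CPM at 10 nM and at 73.2, 66.6 and 67.9 CPM at 20 nM. Of 5 measured complex 2 substrates PRKCA, a protein kinase C, rose (0.46, edgeR adjusted p = 0.000126) and SGK3, a kinase related to AKT, fell (-0.80, 0.0402). SGK3 averaged 1.98 CPM, and it did not pass with the block and 20 nM replicate 3 left out (-0.63, edgeR adjusted p = 0.0877).

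Among genes whose transcription follows complex 1 activity, the ATF4 branch was mixed, with 2 of 8 lower and 3 higher. Of all genes, 7.69% were called lower and 9.84% higher in the dose trend. SLC7A5, a leucine transporter, was at 0.31 (edgeR adjusted p = 0.00726), SHMT2, of mitochondrial one-carbon metabolism, at 0.18 (0.0256), and ASNS, asparagine synthetase, at -0.33 (0.0189). The SREBP branch of sterol and fatty acid synthesis had 3 of 9 called higher and all 9 above 0, with a median of 0.14 beside 0.00 over all genes. Among the called genes were SCD, a fatty acid desaturase, at 0.25 (edgeR adjusted p = 0.000946), and HMGCS1, of sterol synthesis, at 0.25 (0.0153). SCD was at 376, 368 and 367 CPM in Ctrl, at 389, 401 and 401 CPM at 10 nM and at 440.1, 435 and 459 CPM at 20 nM, above every control at both amounts. Of all genes, 10.1% lay above every control at 10 nM and 15.2% at 20 nM. HMGCS1 missed under the block (0.17, edgeR adjusted p = 0.201), and its 20 nM replicate 3 lay within the Ctrl range. Of 10 lysosomal genes that TFEB controls, 1 fell and 2 rose, around a median of 0.01. HEXA, a lysosomal hexosaminidase subunit, was at -0.26 (edgeR adjusted p = 0.00347), and GPNMB, a lysosomal glycoprotein, at 1.0 (0.00276) from a level of only 2.76 to 3.53 CPM in Ctrl.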

How the data were processed

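Estimated counts per gene were made by the authors with Salmon on GRCh38.p13, per the labels, and deposited after a filter on expression. A deposited table of log2 values, corrected by the authors with surrogate variables, entered no test. Deposited tables of the authors' own comparisons (fold changes and p-values) were not used, and 0 sample columns were left unmapped. The counts, rounded to whole numbers, were tested with edgeR 4.0.16 (quasi-likelihood, trimmed-mean scaling) and sva 3.50.0 in R 4.3.3. The expression filter removed 0 genes. The group fit held 1 surrogate variable and the dose fit 2, with a seed of 1. Neither held a term for replicate number, which only the block fits did. P-values were adjusted by the Benjamini-Hochberg method over 14943 genes at a threshold of 0.05, and the fits were tested on simulated data first. DESeq2 1.42.0 served as an alternative, beside other scalings, filters and numbers of surrogate variables, a replicate block and each library left out in turn. A stretch of 2 SE on either side is given as an interval.

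Sites and lengths came from GENCODE 44 on GRCh38.p14, to which 14105 genes matched by identifier, and the mature microRNA from RefSeq. Replicate numbers were taken to pair samples with Ctrl, because deviations from the group means of same-numbered libraries correlated at 0.142 to 0.185 (10 nM) and 0.107 to 0.116 (20 nM); between 10 and 20 nM 1 of 3 pairs was at 0.0288. All within-group pairs differed by more than sampling noise. Members and lists were chosen with earlier results of these data known. Every member was named, and from each list at most 3 genes past the threshold in the dose trend (lowest adjusted p first, average level of 1 CPM or more), together with the 5 genes most correlated with MTOR. PIK3CA was named after its value was seen, and some genes that the rule names are not reported here. Counts limit the precision by counting error, and the spread of 3 libraries a group by more.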

Additional observations from a re-analysis of the deposited data

How the results depend on the processing

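Limits: each group has 3 libraries, the 20 nM group holds the library that stands apart, DEPTOR rests on 19 to 50 counts, and the mimic itself was not measured. Of 756 combinations of a member result and an alternative, 676 kept their direction and their side of the threshold, 24 lost it, 26 passed only in the alternative and 30 changed sign, none of these with a value past the threshold in either fit. The cause was not tested.

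At 10 nM 1 member passed as reported. The count was 0 without surrogate variables, with the replicate block, and with 20 nM replicate 3 left out and no surrogate variable (edgeR, 0, 1 and 2 members at an unadjusted p under 0.05). It was 2 with 3 surrogate variables and with 20 nM replicate 3 left out under re-estimated surrogate variables or under the block (MTOR and AKT1S1), and 0 to 1 when 1 library was left out. At 20 nM 2 passed as reported, 0 without surrogate variables and with the replicate block (edgeR, 3 and 4 at an unadjusted p under 0.05), and, with 20 nM replicate 3 left out, 4 under re-estimated surrogate variables and 5 under the block (MTOR, MAPKAP1, AKT1S1, TSC1 and TSC2). Leaving out 1 library gave 1 to 3, with 1 (MTOR) in the fits without 20 nM replicate 1, 20 nM replicate 2, Ctrl replicate 2 or Ctrl replicate 3. Between 10 and 20 nM 0 passed as reported and 1, MAPKAP1, with 20 nM replicate 3 left out under re-estimated surrogate variables or the block. In the dose trend 2 passed as reported, 0 without surrogate variables (3 at an unadjusted p under 0.05), 1 with the replicate block (AKT1S1) and 5 with the block and 20 nM replicate 3 left out. Leaving out 1 library there gave 1 to 6, with 1 (MTOR) without Ctrl replicate 3 and 6 (MTOR, AKT1S1, DEPTOR, MLST8, RICTOR and TSC1) without 20 nM replicate 1. The fit with the block, which holds no surrogate variables, lost the calls of MTOR in 3 comparisons and of MAPKAP1 at 20 nM and no other member call. Leaving out the surrogate variables without a block lost these and AKT1S1 in the dose trend. DESeq2 called 1, 2, 0 and 2 members. The filter of 50 counts leaves DEPTOR untested. The fit with the block and without 20 nM replicate 3 was chosen after seeing the data.

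The values that changed sign were small. RPTOR at 10 nM, at -0.00022 as reported, was at 0.024 without surrogate variables, 0.023 under the replicate block, 0.0033 with RLE size factors, 0.0020 with the filter of 50 counts, 0.0031 with DESeq2 and 0.014 with 3 surrogate variables. With 20 nM replicate 3 left out it was at 0.027, 0.025 and 0.023 (surrogate variables re-estimated, none, block), and with 1 library left out from -0.044 to 0.034. RICTOR at 20 nM was at 0.017 with 2 surrogate variables. Without surrogate variables TSC2 was at 0.0040 at 20 nM and in the dose trend, RHEB at 0.13 at 20 nM (0.12 under the block), and MTOR between 10 and 20 nM at 0.015 (0.0075 under the block). The RHEB dose trend was at -0.026, -0.031 and -0.018 with 20 nM replicate 3 left out (surrogate variables re-estimated, none, block). With 1 library left out, TSC1 ran from -0.23 to 0.044 at 20 nM and from -0.23 to 0.0010 in the dose trend, RHEB from -0.063 to 0.020 at 20 nM, the TSC2 dose trend from -0.097 to 0.0040, and the RHEB dose trend from -0.026 to 0.086.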
